A study of Homo sapiens with 2 samples.

Results

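The zinc finger genes of chromosome 19 were taken as the genes of the deposited tables on that chromosome whose symbol is ZNF followed by digits and at most 1 letter. The rule found 262 genes with 261 symbols, among 60619 genes in all, because ZNF709 is listed under 2 gene IDs. The symbol rule leaves out chromosome 19 zinc finger genes with other names, such as those called ZFP or ZIM. By the same symbol rule, 295 genes lay on other chromosomes, and chromosome 19 held 2744 other genes.

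RNA was measured in HBEC-3KT, a line of human bronchial epithelial cells immortalised with CDK4 and telomerase. The first group, labelled as overexpressing cystathionine beta synthase (CBS), was transduced with the pLenti6-hCBS lentivirus. The control group was transduced with the empty pLenti6 virus. Each group held 1 library. In both groups the virus was left on for 4 to 8 hours, transduced cells were selected in 10 µg/mL blasticidin, and growth on gelatin in 2D lasted 4 to 5 days. The promoter that drives the transgene and the number of independent transductions are not given in the sources used here. CBS makes cystathionine from homocysteine, and the design asks how its expression bears on PRC2, the complex that methylates lysine 27 of histone H3. With no replicates, nothing below could be tested between conditions. Folds compare 2 libraries, and their intervals cover counting error only.

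Most zinc finger genes of chromosome 19 encode proteins that carry a row of C2H2 fingers, which read DNA, behind a KRAB domain. The KRAB domain recruits TRIM28 (KAP1), which brings in the H3K9 methyltransferase SETDB1, HP1 proteins and the NuRD deacetylase complex, and so silences transposable elements and other targets. The family grew by tandem duplication into dense clusters along the chromosome. The bodies and especially the 3′ ends of these genes carry H3K9me3 themselves, laid down in part through ZNF274.

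The 2 libraries held 20785957 estimated counts with CBS against 20433062 with empty vector. CBS itself had 3669 counts in the CBS library against 280 in the control library, a log2 fold of 3.59 (3.44 to 3.79), and its near-identical copy CBSL had 4378 and 343, which fits the labels. All 8 basal airway markers examined passed the filter in these cells and summed to 7406 CPM (counts scaled to library size) with CBS against 12904 CPM with empty vector. Of these 8, KRT14, KRT15, KRT17 and LAMB3 were at least 2-fold lower with CBS, at log2 folds of -2.15, -1.94, -1.49 and -1.31, while NGFR was at 0.93 and TP63, the defining factor of basal cells, at -0.04 with an interval that held a ratio of 1. The 4 general epithelial markers summed to 4070 CPM with CBS and 2863 CPM with empty vector. EPCAM, KRT8 and KRT18 were higher, at log2 folds of 0.54, 0.46 and 0.68, and CDH1 was lower, at -0.24. Of immune, fibroblast and endothelial markers, 2 of 5, 1 of 5 and 1 of 4 passed the filter. They summed to 39.6, 6.24 and 4.17 CPM with CBS, against 124, 13.8 and 0.753 CPM with the empty vector. Above the filter, CD68 had 619 counts with CBS against 2259 with empty vector, and CD14 had 225 against 203. In the same order COL1A1 had 132 and 270 counts and CDH5 had 87 and 7. PTPRC, CD3E, COL1A2, LUM and KDR had no count in either library. Marker levels moved between the libraries together with the results below, and their part in those results was not tested. In bulk RNA, fewer cells of a type and less RNA per cell cannot be told apart.

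Promoter sequences are shown for members that differed in opposite directions. The 4 printed here belong to ZNF586 and ZNF587B, among the 12 well-counted members highest with CBS, and to ZNF419 and ZNF773, the lowest among well-counted members. All 4 lie within about the same stretch near the long-arm end of chromosome 19. Each is 300 bases from the RefSeq promoter table (GRCh38.p14), from 250 bases before the gene's start to 50 after it, on the plus strand, 5′ to 3′. Capitals mark CCGGAAG, the core bound by ETS-family factors, on either strand (CTTCCGG is its reverse complement), and AACTACA, a run noticed only once these promoters had been read. They span chr19:57769426-57769725 for ZNF586, chr19:57830049-57830348 for ZNF587B, chr19:57487500-57487799 for ZNF419 and chr19:57499688-57499987 for ZNF773.
ZNF586: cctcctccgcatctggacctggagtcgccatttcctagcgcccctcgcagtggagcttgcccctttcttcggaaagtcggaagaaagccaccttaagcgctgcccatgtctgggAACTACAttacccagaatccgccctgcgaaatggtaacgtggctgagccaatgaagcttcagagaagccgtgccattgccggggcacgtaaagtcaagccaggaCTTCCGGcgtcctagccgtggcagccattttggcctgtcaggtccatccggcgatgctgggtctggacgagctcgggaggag
ZNF587B: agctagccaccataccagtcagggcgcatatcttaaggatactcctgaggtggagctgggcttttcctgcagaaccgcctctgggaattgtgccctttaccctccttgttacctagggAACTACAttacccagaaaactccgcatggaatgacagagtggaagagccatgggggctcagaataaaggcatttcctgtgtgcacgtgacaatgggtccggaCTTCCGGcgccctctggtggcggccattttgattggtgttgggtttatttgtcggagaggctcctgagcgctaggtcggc
ZNF419: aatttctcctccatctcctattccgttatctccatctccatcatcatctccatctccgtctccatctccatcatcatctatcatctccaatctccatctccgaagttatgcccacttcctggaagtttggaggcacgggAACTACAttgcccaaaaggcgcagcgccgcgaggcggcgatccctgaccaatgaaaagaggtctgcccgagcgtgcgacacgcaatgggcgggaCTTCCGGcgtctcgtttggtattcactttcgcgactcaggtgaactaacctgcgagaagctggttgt
ZNF773: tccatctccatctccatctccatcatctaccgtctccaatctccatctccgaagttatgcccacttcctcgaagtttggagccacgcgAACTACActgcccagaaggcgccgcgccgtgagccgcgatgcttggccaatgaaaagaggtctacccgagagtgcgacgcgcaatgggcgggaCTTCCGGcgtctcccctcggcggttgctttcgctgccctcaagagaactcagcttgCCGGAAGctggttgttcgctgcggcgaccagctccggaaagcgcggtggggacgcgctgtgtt

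All 4 promoters, from genes that differed in opposite directions, hold the CCGGAAG core and AACTACA. Over the whole family, 214 of 262 genes had an entry in the promoter table. CCGGAAG, searched on both strands, was in 96 of these, or 44.9%. It was in 10.7% of all 27305 promoters of the table and in 19.7% of the 9188 promoters of other genes above the filter on low counts. AACTACA was in 16.8% of member promoters, in 3.41% of all promoters and in 3.60% of those of other genes above the filter. The longest run that all 4 promoters share is GGACTTCCGGCG, which holds the reverse complement of CCGGAAG. It was searched only after these promoters were read, and was in 11 member promoters, or 5.14%. Its share was 0.0879% of all promoters and 0.131% of those of other genes above the filter. The 4 promoters that defined this run are counted in the 11 and in the share of all promoters. They are likewise counted for AACTACA, so neither set of shares is an independent comparison.

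The other motifs searched were rarer in member promoters than CCGGAAG and AACTACA. An 11-letter core of the element bound by ZNF143 and THAP11 was matched exactly in 2 member promoters (0.935%). The core was in 0.256% of all promoters and in 0.588% of those of other genes above the filter. Variants of the element were not searched, and AACTACA holds ACTACA, the start of that core. The low share of exact matches therefore does not show that member promoters lack the element. ACTACAA, which that core contains and which overlaps AACTACA in part, was in 5.14% of member promoters, 2.95% of all and 3.94% of those of other genes above the filter. The cyclic AMP response element TGACGTCA was in 3.27% of member promoters, 1.98% of all and 3.36% of those of other genes above the filter. The median number of CG dinucleotides was 20 in member promoters, 14 in all promoters and 27 in those of other genes above the filter. Duplicated genes share promoter sequence by descent, so member promoters are not independent draws.

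The family as a whole was expressed at a low level. Its members summed to 32828 counts with CBS against 32718 with empty vector. That was 0.158% of all counts in the CBS library (exact 95% interval 0.156% to 0.160%) and 0.160% in the empty-vector library (0.158% to 0.162%). At least 1 count was found for 227 members with CBS against 226 with empty vector, and at least 10 counts for 200 and 199 members. The median member had 59 counts with CBS against 63 with empty vector. In the authors' TPM, which corrects for transcript length, members above the filter had a median level of 2.84 TPM, against 14.3 TPM for all genes above it and 5.11 TPM for zinc finger genes of other chromosomes. Of the 262 members, 17 reached a mean of 10 TPM.

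The filter (10 counts in either library and 1 CPM on average) was passed by 180 of the 262 members and by 13304 of all genes. Of the 82 members below it, 28 had no count in either library. The other 54 had at most 24 counts in a library. All 82 together summed to 382 counts with CBS against 417 with empty vector. Of the 13 members whose symbol ends in P, as pseudogenes do, 1 passed. ZNF208, whose 36 fingers were the most found in any member, had 1 count with CBS against 0 with empty vector.

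**Figure D1:**
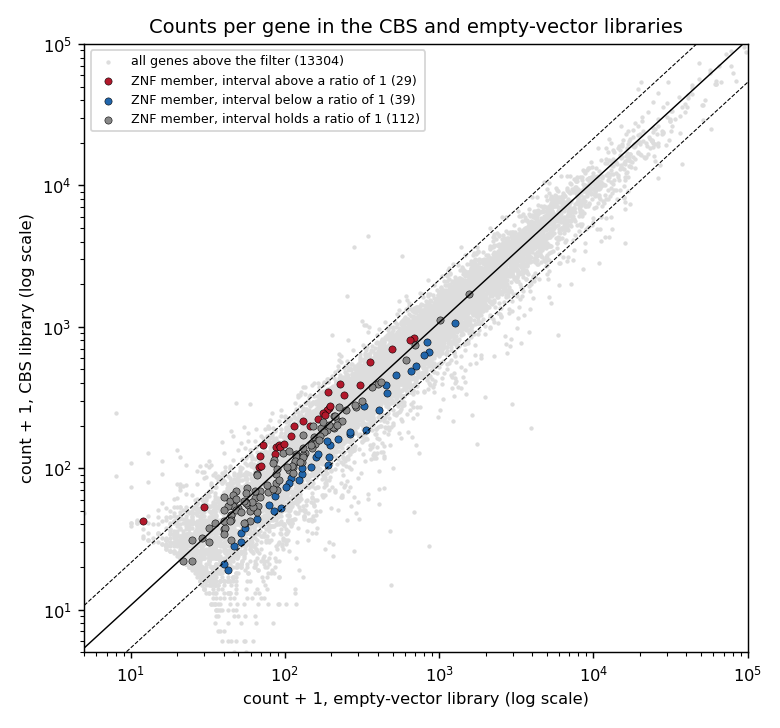
Counts per gene in the CBS library (vertical axis, count + 1, log scale) and in the empty-vector library (horizontal axis, count + 1, log scale), with the 180 chromosome 19 ZNF genes above the filter in colour over all 13304 genes in grey. The solid line is a ratio of 1 after scaling and the dashed lines are 2-fold. Colours separate the 29 members with an interval above a ratio of 1, the 39 below and the 112 that hold it, and nearly all members lie between the 2-fold lines.

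Members above the filter lay slightly lower in the CBS library than genes in general. Their median log2 fold (CBS over empty vector, prior count 5) was -0.13 (quartiles -0.33 and 0.19), where the median of all genes above the filter was 0.00 (quartiles -0.31 and 0.27). The log2 fold was below 0 for 117 of the 180 members, or 65.0%, and for 49.8% of all genes. With plain library totals the 2 medians were -0.06 for members and 0.07 for all genes, and in log2(TPM + 1) they were -0.02 and 0.09, so the members stayed below all genes by 0.11 to 0.13. Summed over all 262 members, the level was 1540 CPM with CBS against 1643 CPM with empty vector, a ratio of 0.937 (0.923 to 0.952), but the sum over all genes had a ratio of 0.9504 under the same scaling.

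Few members were far apart. The exact 95% interval of the ratio lay above 1 for 29 members (16.1%; 31.6% of all genes) and below 1 for 39 (21.7%; 31.1% of all genes). With plain library totals the members' numbers were 33 above and 33 below. A fold of at least 2 with such an interval was reached upward by 1 member, against 1.41% of all genes, and downward by 1 member, against 5.28% of all genes. At 1.5-fold, 8 members were higher, where 7.02% of all genes were, and 16 lower, where 12.9% were. Members have fewer counts than most genes, which widens their intervals, whose median width was 0.79 on the log2 scale. Among genes with at least 100 counts in 1 library, the 110 members held none at 2-fold in either direction, whereas 115 of 11040 genes were at least 2-fold higher and 438 at least 2-fold lower. The median of those 110 members was -0.13 and that of the 11040 genes 0.03. The interval lay above 1 for 27 of the 110 members (24.5%) and below 1 for 28 (25.5%). Of the 11040 genes, 36.03% lay above and 32.02% below.

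For zinc finger genes of other chromosomes the median was -0.03 (223 genes), with 56.1% below 0, and it turned to 0.04 with plain library totals in place of TMM scaling and in log2(TPM + 1). The other genes of chromosome 19 were lower still, with a median of -0.19 over 751 genes and 67.2% below 0. Those lying between members inside the zinc finger clusters had a median of -0.25 (108 genes) and those outside the clusters -0.18 (643 genes). Members and other genes of the chromosome both lay below all genes. The difference between members and other genes of the chromosome was not tested, since genes are not replicates.

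**Figure D2:**
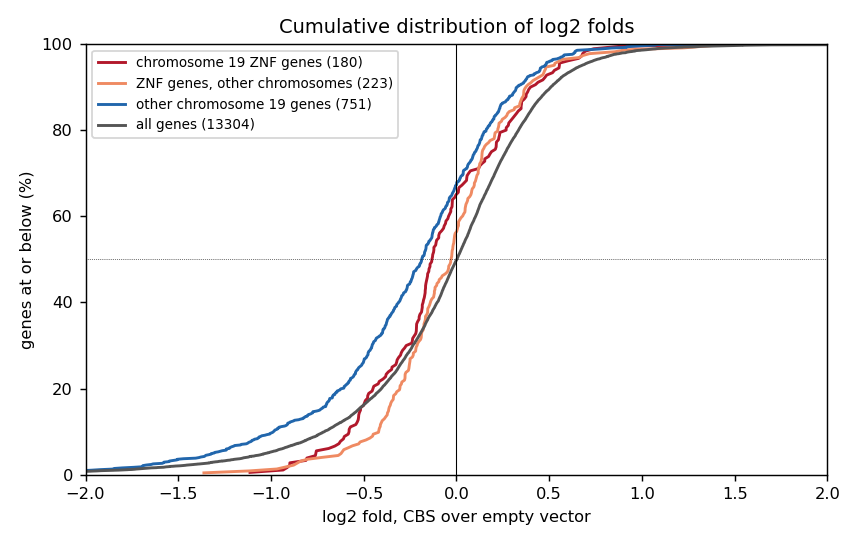
Share of genes (vertical axis, percent) at or below each log2 fold, CBS over empty vector (horizontal axis), for chromosome 19 ZNF genes, ZNF genes of other chromosomes, other chromosome 19 genes and all genes above the filter. The curves cross 50% at -0.13, -0.03, -0.19 and 0.00 in that order, and fewer chromosome 19 ZNF genes than genes in general lie beyond a log2 fold of 1 in either direction.

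Base composition separated the members from their neighbours. The longest annotated transcripts of members had a median GC content of 42.5%, against 59.6% for other chromosome 19 genes and 48.1% for all genes above the filter. Across all genes the log2 fold ran down with GC content (Spearman's rho -0.28 over 13225 genes of the same 2 libraries), while across the 180 members rho was 0.02. With the trend of the fold on GC content and transcript length removed, members came to a median of -0.18 and other chromosome 19 genes to -0.02. Zinc finger genes of other chromosomes came to -0.08 and all genes to 0.00 in that scale. These medians are descriptions of 1 pair of libraries.

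Among members with 100 counts or more in a library, ZNF586 was the highest with CBS, and 2 genes whose listed intervals overlap its own were among the 12 highest. ZNF586 (chromosome 19, 57769655 to 57819939, GRCh38), a KRAB gene with 8 fingers, had 144 counts with CBS against 71 with empty vector, or 4.82 and 2.76 TPM. Its log2 fold was 0.88 (0.50 to 1.35). ZNF587B (57819741 to 57846238), a KRAB gene with 15 fingers, had 391 and 227 counts in the CBS and empty-vector libraries, or 9.08 and 5.17 TPM, and a log2 fold of 0.67 (0.45 to 0.93). ZNF552 (57803841 to 57814913), on the opposite strand, had 169 and 108 counts in the CBS and empty-vector libraries and a log2 fold of 0.53 (0.19 to 0.91). By listed interval, ZNF552 lies inside ZNF586 and ZNF587B overlaps the end of ZNF586, while ZNF552 and ZNF587B do not overlap. Listed intervals include introns, and whether reads were shared in these overlaps was not examined. The longest ZNF586 transcript shared no 75-base stretch with transcripts of other genes, compared in the sense direction only. The RefSeq start used for the ZNF587B promoter lies inside its listed interval and not at its first base.

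The other members of the 12 highest do not adjoin these genes. ZNF57, a gene of the short-arm tip, had 121 counts with CBS against 68 with empty vector, and a log2 fold of 0.69 (0.29 to 1.18). ZNF714 had 197 and 113 counts in the same order and a log2 fold of 0.68 (0.36 to 1.05). ZNF507, which stands alone in its region and matched no KRAB pattern, had 559 counts with CBS against 354 with empty vector and a log2 fold of 0.55 (0.37 to 0.76). The rest were ZNF180 at 0.60, ZNF649 at 0.56, ZNF101 at 0.55, ZNF784 at 0.49 and ZNF71 at 0.48, all log2 folds with an interval above a ratio of 1. ZNF649 is a KRAB repressor reported to damp transcription driven by serum response elements and AP-1, and it had 144 counts with CBS against 90 with empty vector. Its listed interval overlaps those of ZNF577 and ZNF613.

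ZNF480 followed ZNF586 in count fold among well-counted members, but not in TPM. It had 343 counts with CBS against 190 with empty vector, a log2 fold of 0.74 (0.49 to 1.02), and 6.13 and 6.51 TPM. In log2(TPM + 1) the difference was -0.07, so its direction turned between the authors' 2 scales. Among the 29 members with an interval above a ratio of 1 it is counted by its counts alone.

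The lowest well-counted members were a neighbouring pair. ZNF419 (chromosome 19, 57487711 to 57496097), a KRAB gene whose transcript is known as the source of a minor histocompatibility antigen in kidney cancer, had 184 counts with CBS against 333 with empty vector. Its levels were 5.68 and 9.36 TPM and its log2 fold -0.93 (-1.22 to -0.69). ZNF773 (57499915 to 57518404), next to it on the same strand, had 105 counts with CBS against 189 with empty vector, 4.18 and 6.77 TPM, and a log2 fold of -0.91 (-1.30 to -0.59). Both pairs of counts and both pairs of TPM were lower with CBS.

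ZNF160 had 255 counts with CBS against 407 with empty vector and a log2 fold of -0.76 (-1.004 to -0.54). ZNF160 has been reported as a KRAB repressor of TLR4 in intestinal epithelium. ZNF430 had 119 and 191 counts in the CBS and empty-vector libraries and a log2 fold of -0.76 (-1.12 to -0.44). ZNF528 had 174 and 265 counts in the same order and a log2 fold of -0.69 (-0.99 to -0.42). Its antisense neighbour ZNF528-AS1, which ends just before it, had 30 and 98 counts and a log2 fold of -1.65 (-2.45 to -1.20), so both transcripts of this pair were lower with CBS. The group was completed by ZNF607 at -0.66, ZNF524 at -0.63, ZNF738 at -0.60, ZNF653 at -0.58, ZNF256 at -0.54, ZNF470 at -0.53 and ZNF227 at -0.53. The listed intervals of ZNF653, ZNF524 and ZNF227, introns included, overlap those of ECSIT, FIZ1 and ZNF235. Whether exons overlap was not examined, and the strand setting of the counting was not given, so the origin of any shared reads is not known.

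**Figure D3:**
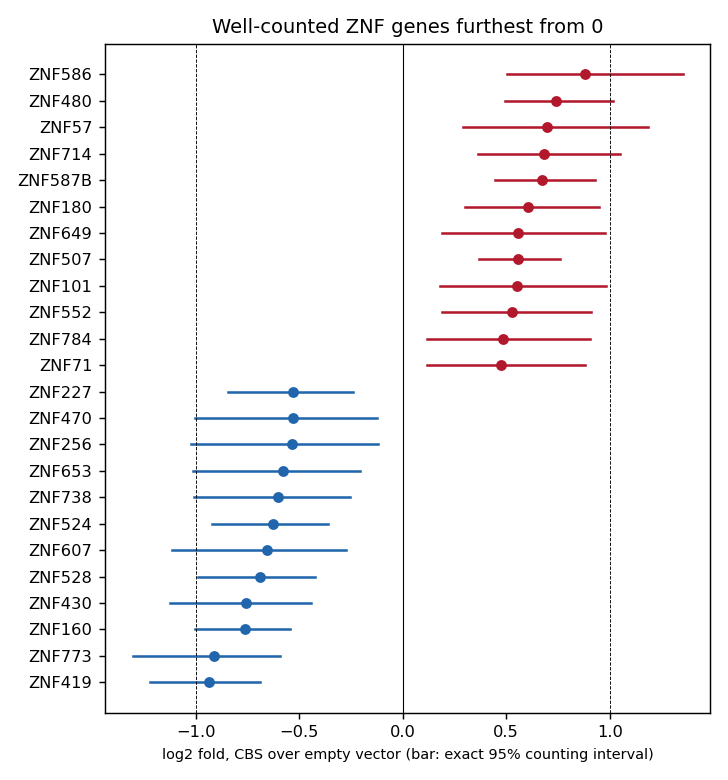
Log2 fold, CBS over empty vector (horizontal axis), of the 12 highest and 12 lowest well-counted ZNF genes of chromosome 19 (100 counts or more in a library, interval clear of 1). Points are folds, bars exact 95% counting intervals and dashed lines 2-fold. No point reaches a 2-fold line, with ZNF586 at 0.88 the highest and ZNF419 at -0.93 the lowest.

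Only low-count members crossed 2-fold. ZNF443 had 41 counts with CBS against 11 with empty vector, a log2 fold of 1.45 (0.81 to 2.91). It shares 28.2% of the 75-base words of its longest transcript with other genes, mainly ZNF799, so its counts are uncertain. ZNF347 had 18 and 42 counts in the CBS and empty-vector libraries, a log2 fold of -1.11 (-2.20 to -0.49). The members just outside the line were ZNF419, ZNF773 and ZNF350. ZNF350 (ZBRK1), a repressor that acts with BRCA1, had 51 counts with CBS against 93 with empty vector and a log2 fold of -0.90 (-1.49 to -0.46).

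The most abundant members by length-corrected level include several with no KRAB pattern. ZNF358 had 41.2 TPM with CBS against 48.2 TPM with empty vector, from 1064 and 1268 counts, and a log2 fold of -0.35 (-0.47 to -0.23). After removal of the GC and length trend, that fold was 0.01. ZNF787 was at 41.0 and 37.0 TPM in the CBS and empty-vector libraries, with a log2 fold of 0.06 (-0.07 to 0.18). ZNF146 (OZF), a protein made almost wholly of fingers, was at 36.0 TPM with CBS against 32.4 TPM with empty vector and had a log2 fold of 0.01 (-0.09 to 0.11). The intervals of ZNF787 and ZNF146 held a ratio of 1, so no difference was detectable at this depth. ZNF581 and ZNF580, which overlap each other and CCDC106, were at 40.0 and 33.1 TPM with CBS against 44.9 and 41.5 TPM with empty vector, with log2 folds of -0.16 (-0.33 to 0.00) and -0.53 (-0.70 to -0.36). ZNF414 was at 27.1 TPM with CBS against 40.2 TPM with empty vector and had a log2 fold of -0.52 (-0.74 to -0.32). ZNF544, with 22.0 TPM with CBS against 21.0 TPM with empty vector, had a log2 fold of 0.21 (0.06 to 0.37), and ZNF444, which carries a SCAN domain, was at 17.0 and 20.9 TPM with a log2 fold of -0.29 (-0.48 to -0.11).

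Of 4 members taken here as acting on chromatin or on transposons, 3 had counts, each with a log2 fold below 0. The group was set apart here from a longer list of members with a known role, whose log2 folds lay on both sides of 0. Its shared direction is therefore not a result about silencing factors. Log2 folds below 0 were also found for 65.0% of members above the filter and 49.8% of all genes. ZNF304, a further member reported to direct silencing, was at 0.07. ZNF274, the KRAB factor that recruits SETDB1 through TRIM28 to the 3′ ends of other zinc finger genes, had 525 counts with CBS against 704 with empty vector and a log2 fold of -0.52 (-0.69 to -0.36), at 14.1 and 17.96 TPM. ZNF91, which silences SVA retrotransposons, had 126 and 134 counts in the CBS and empty-vector libraries and a log2 fold of -0.18 (-0.55 to 0.17). ZNF93, which silences young L1 elements, had no count in either library, which allows up to 3 counts in each. ZNF274 was thus the one of these genes with an interval clear of a ratio of 1. ZNF568, whose mouse counterpart represses a placental Igf2 transcript, had 37 counts with CBS against 40 with empty vector, a log2 fold of -0.19 (-0.90 to 0.47).

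Among other members with a known role, ZNF296 had 246 counts with CBS against 175 with empty vector and a log2 fold of 0.38 (0.11 to 0.68). ZNF331, an imprinted gene, had 271 and 224 counts in the same order and a log2 fold of 0.17 (-0.08 to 0.44). ZNF296 was higher beyond counting error and ZNF331 was not. ZNF473 (ZFP100), a part of the machinery that processes histone mRNA, had 271 and 287 counts and a log2 fold of -0.18 (-0.43 to 0.06). ZNF420 (APAK), a repressor of p53 target genes, had 71 counts with CBS against 56 with empty vector and a log2 fold of 0.23 (-0.28 to 0.78), and its listed interval overlaps that of ZNF585A on the other strand. ZNF304, reported to direct silencing of INK4-ARF, was at 0.07, ZNF8 at 0.15, ZNF85 at 0.00, ZNF224 at -0.21 and ZNF675, a TRAF6-binding protein, at -0.13, all log2 folds with an interval that held a ratio of 1. ZNF671 was at -0.17 (-0.79 to 0.41), while ZNF154, ZNF114, ZNF460 and ZNF382 were below the filter, with 12, 4, 11 and 1 counts with CBS and 7, 11, 22 and 2 with the empty vector.

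A list built around the co-repressors of KRAB proteins lay mostly higher with CBS. It held 35 genes for KRAB co-repressors, heterochromatin proteins, histone and DNA methylation enzymes and promoter factors of the family. The list was written with earlier results of these data known, and all 35 passed the filter. Its median log2 fold was 0.23, and 24 of 35 had an interval above a ratio of 1 (31.6% of all genes) and 3 below (31.1% of all genes). All 35 had at least 100 counts, and among all genes with that many the shares were 36.03% above and 32.02% below. The list had none at 2-fold in either direction. For 8 of the 35 the interval held a ratio of 1, among them ATF7IP at -0.005 (-0.14 to 0.13) and CBX5 at -0.08 (-0.18 to 0.02). TRIM28 had 13558 counts with CBS against 9745 with empty vector and a log2 fold of 0.38 (0.34 to 0.42). SETDB1 had 630 and 497 counts and a log2 fold of 0.24 (0.07 to 0.42). UHRF1, which brings DNMT1 to replicated DNA, had 2395 and 1184 counts and a log2 fold of 0.92 (0.82 to 1.02), and DNMT1 itself had 4724 and 2696 counts and 0.71 (0.64 to 0.78), each in the order CBS and empty vector.

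The list also held genes that were lower. KDM4B, which removes H3K9 methylation, had 847 counts with CBS against 1161 with empty vector and a log2 fold of -0.55 (-0.68 to -0.42). KDM4C was at -0.31 (-0.49 to -0.13) and DAXX, a chaperone of histone H3.3, at -0.21 (-0.30 to -0.12). THAP11, which binds some zinc finger gene promoters together with ZNF143 and HCFC1, was at 0.47 (0.29 to 0.66), and ZNF143 itself at 0.00 (-0.21 to 0.21). The members' median of -0.13 and this list's median of 0.23 were set side by side only, as no test compares them.

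Medians of members with and without a KRAB match lay close together. A coding sequence was found for 248 members in GENCODE 29, and their translated products held 0 to 36 fingers, with a median of 12. The planned KRAB pattern, which matches part of the domain only, was in 121 of them, and either of the planned and a broader pattern, added after the data were seen, in 206. By the planned pattern the median log2 fold was -0.15 with a match (90 members above the filter) and -0.11 without (89), which became 0.03 in log2(TPM + 1). By either pattern it was -0.13 with a match (147) and -0.13 without (32). A missing match does not show a missing domain. By number of fingers, the medians were -0.15 for 1 to 9, -0.08 for 10 to 14 and -0.16 for 15 or more, and rho of fold with finger number was 0.02 over 178 members.

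After removal of the GC and length trend, the median was -0.22 for the 147 members with either pattern and 0.00 for the 32 without. The transcripts of the 2 sets differ in GC content, with medians of 42.2% with a pattern and 57.8% without. By promoter, the members with CCGGAAG had a median log2 fold of -0.17 (77 above the filter) and those without it -0.03 (87). Those with AACTACA had a median of -0.01 (32) and those without -0.16 (132).

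Along the chromosome the family fell into 17 clusters, when neighbouring starts more than 1000000 bases apart were taken as the break, of which 5 held a single member. The 9 clusters with at least 3 members above the filter held 250 of the 262 members. Their median log2 folds ran from -0.17 to 0.14, and 7 of 9 lay below 0. With plain library totals, where all genes had a median of 0.07, the clusters starting at 19.67 and 55.48 Mb came to 0.02 and 0.001. In log2(TPM + 1) and log2(TPM + 0.1) the one at 19.67 Mb was at 0.04 and 0.07. The widest by number of genes, the last on the long arm (55.48 to 58.48 Mb), had 60 members, 49 above the filter, a median of -0.07, 9 with an interval above a ratio of 1 and 11 below. The cluster before it (51.57 to 53.58 Mb) had 43 members, 34 above the filter, a median of -0.16, 5 above and 11 below.

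Of the other large clusters, the one at 19.67 to 24.13 Mb, known for its primate-specific duplicates, held 41 members, of which 13 passed the filter while 17 lacked any count. Its median was -0.06, and its well-counted members ran from ZNF430 at -0.76 to ZNF714 at 0.68. The cluster at 11.48 to 12.64 Mb had a median of -0.17 over 14 members, from ZNF69 at -0.90 to ZNF443 at 1.45, and the one at 7.07 to 9.79 Mb a median of -0.15 over 12, with 1 member above and 5 below, where the other genes between had a median of -0.40 (29 genes). The cluster at 43.53 to 45.08 Mb had 22 members above the filter and a median of -0.16, from ZNF180 at 0.60 among well-counted members to ZNF227 at -0.53. The cluster at 36.18 to 37.82 Mb had a median of -0.09 over 19 members. ZNF574 and ZNF526, a pair near 42.07 Mb, were both higher, at 0.38 (0.21 to 0.55) and 0.23 (0.01 to 0.45).

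Members of both directions stood side by side. Over the 166 neighbouring pairs above the filter within a cluster, Spearman's rho of their log2 folds was 0.00. Of 30 such pairs in which both intervals excluded a ratio of 1, 16 differed the same way and 14 opposite ways. A running median over 15 members lay between -0.37 and 0.27, below 0 in 141 of 166 windows. Successive windows share most of their members, and 65.0% of all members above the filter lay below 0. The windows are thus not separate observations and do not show a trend along the chromosome.

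**Figure D4:**
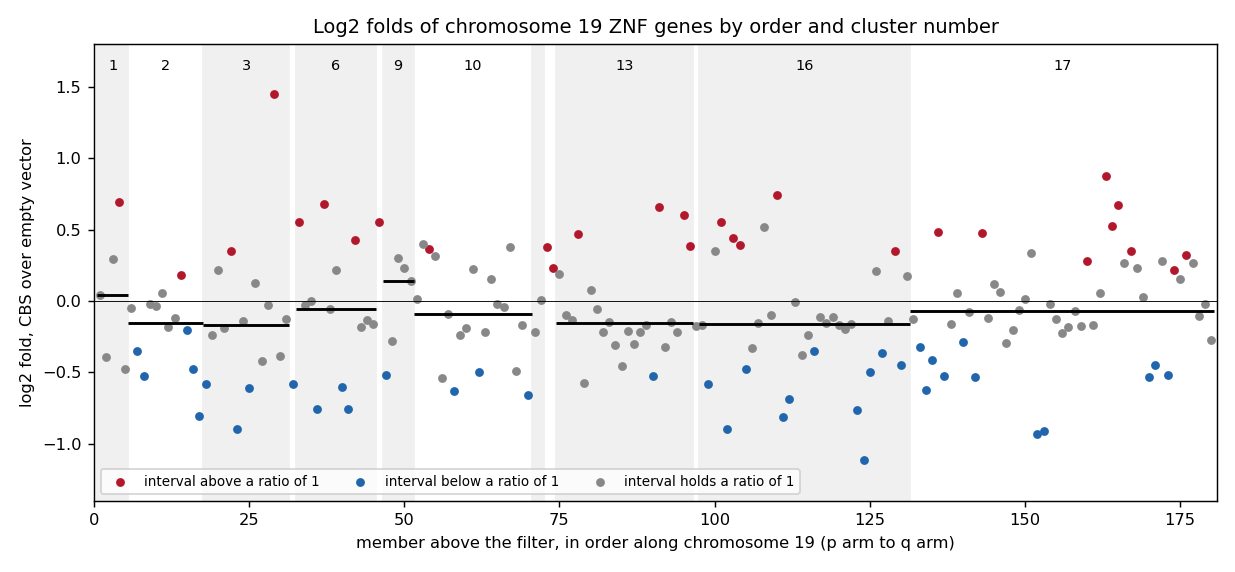
Log2 fold, CBS over empty vector (vertical axis), of the 180 ZNF genes above the filter in their order along chromosome 19 (horizontal axis), with alternate position clusters shaded and numbered. Horizontal bars are the medians of clusters with at least 3 members above the filter, from -0.17 to 0.14, and points of both signs stand side by side within the clusters.

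Similar sequence limits how members can be told apart. On GENCODE 29 transcripts, 23 members shared at least 20% of their 75-base words with another gene, 11 of them above the filter, while 117 shared none. ZNF320 and ZNF468 shared almost all of theirs with other genes. ZNF320 had 201 and 216 counts in the CBS and empty-vector libraries, and ZNF468 had 147 and 155. Expected counts that were not whole, which arise when reads are split between genes, were found for 71.1% of members above the filter, against 50.9% of all genes above it. Without the 23 members, the median log2 fold was -0.13.

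Counts and TPM disagreed for some members. Among the 110 members with at least 100 counts, the count per TPM changed by 1.5-fold or more for 4, or 3.64%, against 0.806% of 11039 genes. The 4 were ZNF480, ZNF175, ZNF470 and ZNF432. ZNF175 had 123 counts with CBS against 130 with empty vector, but 2.51 and 1.55 TPM. ZNF470 had 77 and 106 counts in the same order, and 0.79 and 1.75 TPM. ZNF432 had 125 and 164 counts, and 3.02 and 2.59 TPM. ZNF175 and ZNF432 were thus lower with CBS in counts and higher in TPM. A change in count per TPM goes with a change in the transcript lengths assigned to a gene.

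**Figure D5:**
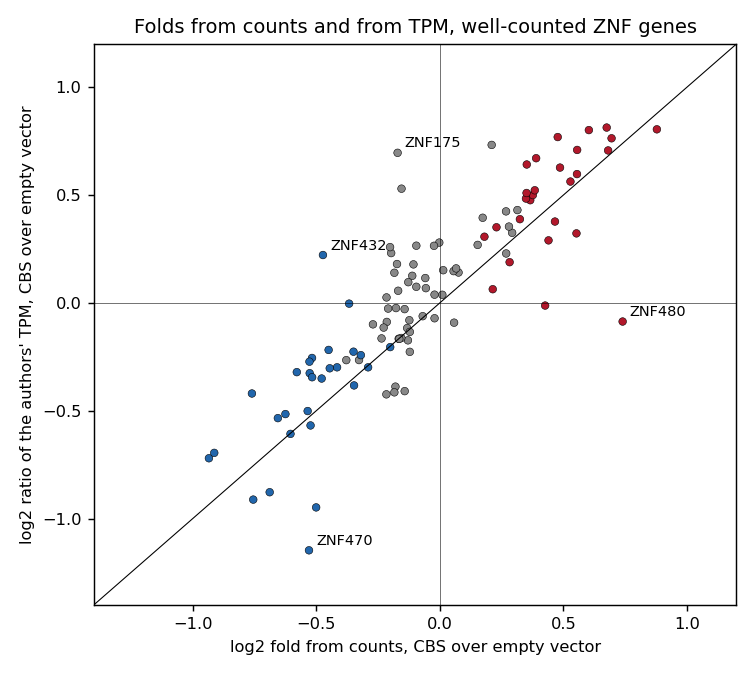
Log2 ratio of the authors' TPM, CBS over empty vector (vertical axis), against the log2 fold from counts (horizontal axis) for the 110 ZNF genes with at least 100 counts in 1 library. The line marks equal values, colours are as in the plot of counts, and the 4 named genes are those whose count per TPM changed by at least 1.5-fold.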

How the data were processed

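Whole-transcriptome RNA levels of 1 library per genotype were analysed, with groups taken from the genotype in the labels. The authors deposited a table of expected counts, which are estimates and often fractional, and these were rounded here to whole numbers. The authors also deposited TPM, per gene, corrected for transcript length and depth. GRCh38, Trimmomatic 0.39, STAR 2.6.1d and RSEM 1.3.2 are named per the submitters' processing notes, without roles. Neither annotation release nor strand setting is given in the sources used here.

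TMM scaling used edgeR 4.0.16 in R 4.3.3 on the 13304 genes above the filter, with library totals taken over all 60619 genes. Size factors of DESeq2 1.42.0, from the same genes above the filter, served as an alternative. Neither fitted a model. TMM factors were 1.03 for CBS and 0.975 for the empty vector. Genes were kept at 10 counts or more in 1 library and a mean of 1 CPM or more. Log2 folds carry a prior count of 5 in proportion to library size, and ratios have conditional binomial (Clopper-Pearson) 95% intervals without it. Reads are not independent molecules, so these are lower limits of the counting error. Python 3.11.15 was used with scipy 1.17.1, statsmodels 0.14.6, pandas 2.3.3, numpy 2.4.6 and matplotlib 3.10.9, and the fold and interval steps were tested on simulated counts.

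GC content, transcript length, coding sequences and shared words came from the longest GENCODE 29 transcript of each gene ID, and 99.4% of genes above the filter had a GC value. GC and length trends were removed by lowess with a span of 0.3. KRAB patterns were searched in the first 200 residues (planned) or 250 residues (broader) of translated coding sequences. The design had named RefSeq proteins, which were not used here.

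The members, gene lists and the rule for named genes were chosen with earlier results of these data known. The rule takes the 12 highest and 12 lowest log2 folds among members with 100 counts or more in 1 library whose interval leaves out 1, the 8 members with the highest mean TPM, members with a known role, the highest and lowest well-counted member of each cluster, and members just inside and outside 2-fold. It also takes CBS, CBSL, TRIM28, SETDB1, ZNF143 and up to 6 further genes of the co-repressor list. ZNF69, ZNF175, ZNF208, ZNF320, ZNF432 and ZNF468 were named after their values were seen.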

Additional observations from a re-analysis of the deposited data

How the results depend on the processing

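Each group held 1 library, so no library could be left out and the difference between cultures is unknown. No paired analysis was possible because each group held 1 library and no fit was made. Another scaling moves all folds together. The median of all genes was 0.00 as reported, 0.07 with plain library totals, 0.09 in log2(TPM + 1) and 0.10 in log2(TPM + 0.1), and the members' median minus that of all genes was -0.13, -0.13, -0.11 and -0.13 in that order. It was -0.13 with DESeq2 size factors, -0.13 and -0.12 with prior counts of 1 and 20, -0.09 without the filter, -0.15 at 100 counts or more and -0.18 with the GC and length trend removed.

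With plain library totals the median log2 fold was -0.059 for members, -0.077 for those with the planned KRAB pattern, -0.037 for those without, 0.045 for zinc finger genes of other chromosomes, -0.11 for other chromosome 19 genes, 0.0012 for the last cluster of the long arm and 0.30 for the co-repressor list, and the summed log2 ratio was -0.0199. In log2(TPM + 1) and log2(TPM + 0.1) these medians were -0.021 and -0.025 for members, -0.064 and -0.087 with the KRAB pattern, 0.033 and 0.057 without it, 0.044 and 0.057 for the other zinc finger genes, -0.062 and -0.066 for other chromosome 19 genes, and -0.032 and -0.045 for the cluster at 51.57 Mb. CBS was at 3.06 and 3.14 in these scales, and the log2 ratio of the members' summed TPM was -0.061. With the GC and length trend removed the medians were -0.18 for members, -0.24 with the KRAB pattern, -0.075 for the other zinc finger genes, -0.025 for other chromosome 19 genes and -0.28 for the cluster at 51.57 Mb. At 100 counts or more they were -0.16 for other chromosome 19 genes, 0.49 for the cluster at 2.82 Mb and -0.52 for the one at 34.54 Mb, which keep 2 members and 1 member. Other chromosome 19 genes were at -0.23 without the filter and -0.18 with a prior count of 20.

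The number of members at least 2-fold higher was 3 in log2(TPM + 0.1) and without the filter, and 0 with a prior count of 20 and at 100 counts or more. The number at least 2-fold lower was 3 in log2(TPM + 0.1), without the filter and with the trend removed, 2 with a prior count of 1, and 0 in log2(TPM + 1), with a prior count of 20 and at 100 counts or more. At 1.5-fold the numbers were 8 higher and 16 lower, and at 4-fold 0 and 0. Among the members named by the rule whose interval left out 1, direction turned for ZNF480, at -0.075 and -0.085 in the 2 TPM scales. It also turned for ZNF358, at 0.0054 with the trend removed. ZNF175 and ZNF432, named after their values were seen, were lower with CBS in counts and higher in TPM. The causes were not tested. Of the 68 members whose interval left out 1, the sign of the fold was the same in all 68 under DESeq2 size factors and plain totals and in 65 under either TPM scale. Breaks of 500000 and 2000000 bases gave 10 and 6 clusters of 3 or more members above the filter, 8 and 5 of them with a median below 0. The broader KRAB pattern and the omission of members with shared words were chosen after seeing the data. The restriction to members with a RefSeq protein was not run, and no intervals were made for the TPM scales or the removed trend.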

Other observations

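Several members have an antisense or readthrough partner with its own gene ID. ZNF561-AS1 had 140 counts with CBS against 177 with empty vector, a log2 fold of -0.42 (-0.77 to -0.11). The readthrough gene ZNF625-ZNF20 had 43 and 48 counts in the same order and a log2 fold of -0.23 (-0.89 to 0.37), and ZNF816-ZNF321P had 18 and 29 counts and -0.64 (-1.72 to 0.11). ZNF582-AS1 had 15 and 14 counts and ZNF529-AS1 14 and 22, both below the filter. Of the 180 members above the filter, 76 have a listed interval that overlaps that of another gene with at least 10 counts over both libraries. These intervals include introns and overlap of exons was not examined, so 76 is not a count of members with ambiguous reads. Where transcripts of 2 genes overlap on opposite strands, their reads cannot be told apart without the strand setting.

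Members above the filter were also put in 3 equal classes of transcript GC content. The median log2 fold was -0.15 in the class lowest in GC, -0.16 in the middle class, where 45 of 60 members lay below 0, and -0.02 in the class highest in GC.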
